A study of Drosophila melanogaster with 18 samples.

Results

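Neuropeptide receptors are the G protein-coupled receptors (GPCRs) through which peptides released by neurons and endocrine cells act on their target cells. The rows of 34 Drosophila genes of this family were taken by gene symbol from the table of read counts, out of 17558 genes in all, and all 34 symbols were found. The choice was by symbol, with no cutoff on a measured value, though earlier results of these data were known when it was made. By structure 25 belong to the rhodopsin-like class A, 5 to the secretin-like class B and 4 to the receptors with a leucine-rich repeat ectodomain. The genes lie on every large chromosome arm, with 8 on X, 2 on 2L, 5 on 2R, 9 on 3L and 10 on 3R.

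Total RNA had been sequenced from adult fly heads of 2 genotypes. Wild type was the w1118 stock. Δmimi carried a null allele of mimi, a gene for a long noncoding RNA of neurons, made by CRISPR-Cas9 as a deletion that starts upstream of the annotated transcription start. Both genotypes were untreated, and the age and the sex ratio of the flies were not given in the sources used here, beyond the use of adult males and females in the study. Heads were sieved from large pools of blended flies and homogenized to a tissue lysate, from which a pellet (granules 1) and a detergent-washed pellet (granules 2) were spun. Each genotype had 3 lysates, 3 granules 1 and 3 granules 2 libraries, 18 in all, and the granule fractions of a replicate number came from the lysate of that number. The labels give the granule fractions as 1 and 2 and do not say which was washed, so the wash is taken from the numbering in the methods. The lines were compared as they are, so any other genetic difference between the Δmimi line and w1118 cannot be told apart from the deletion.

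Peptide GPCRs are expressed at low levels in restricted sets of neurons, glia and endocrine cells, and couple mainly through Gs, Gq or Gi to cAMP and calcium. In the adult fly head they mediate the effects of peptides on feeding, sleep, circadian timing, stress, reproduction and hormone release. Several peptides act through a pair of related receptors, among them allatostatin A, allatostatin C, myosuppressin, drosulfakinin and diuretic hormone 44.

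Libraries held 3635256 to 7798946 counts. mimi itself had 7090 to 18379 reads in wild-type libraries and 30 to 113 in Δmimi libraries, so every library matched its genotype label. Neuronal markers (elav, nSyb, brp, Syt1, Rdl and fne, 6 of the 7 listed, as para was not found by symbol) summed to 1129 to 2167 CPM (counts per 1000000 counts of library size, scaled by TMM), and markers of male reproductive organs summed to at most 4.93 CPM. Germline markers differed between the genotypes. They summed to 12.6 to 27.4 CPM in wild-type and 51.3 to 172 CPM in Δmimi libraries. Hemocyte markers summed to 164 to 427 CPM in wild type and 46.6 to 155 CPM in Δmimi, and the hemocyte gene He was at 0 in 3 of the 6 groups. The part of these other cells in the receptor values was not tested.

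All 34 receptors together took 0.0544% to 0.0737% of the counts of a library, or 2493 to 5151 reads. To compare genes with each other, CPM was divided by the exon length in kilobases (RPKM). The sex peptide receptor SPR, which also binds myoinhibitory peptides and acts in the post-mating response of females, was the most abundant, with a mean level of 49.0 RPKM over the 18 libraries (33.3 to 61.2). It held 28.6% of all receptor reads. Next came the proctolin receptor Proc-R, with a mean level of 12.1 RPKM (9.24 to 14.4), and the glycoprotein hormone receptor Lgr1, with a mean level of 10.05 RPKM (7.59 to 13.4). The lowest were the relaxin-like receptor Lgr3 with a mean level of 0.649 RPKM (0.274 to 1.397), the crustacean cardioactive peptide receptor CCAP-R with 0.903 RPKM (0.519 to 1.38) and the bursicon receptor rk with 1.14 RPKM (0.737 to 1.44). The median member stood at 3.30 RPKM.

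In wild-type lysate the order of levels was clear only at its ends. SPR (39.2 ± 5.55 RPKM, SD, n = 3) stood above Proc-R (12.2 ± 0.499 RPKM) in every library, and Proc-R above the short neuropeptide F receptor sNPF-R (9.23 ± 0.833 RPKM), the third in rank. At the lower end CCHa2-R (1.03 ± 0.0643 RPKM), a receptor of the gut and fat body peptide CCHamide 2, stood above Lgr3 (0.517 ± 0.0602 RPKM). In the other 30 of 33 steps of the order the libraries of neighbouring receptors overlapped. Lgr3 was read by 3 to 28 counts in a library, CCAP-R by 8 to 30, and SPR by 708 to 1646, so counting error alone is large for the lowest members.

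For each receptor the chromosome arm, the summed exon length and the range of its level over the means of the 6 groups follow by role. Receptors of feeding, sleep and metabolism were sNPF-R (3L, 4746 bases, 5.85 to 9.42 RPKM), NPFR (3R, 3214 bases, 1.87 to 2.37 RPKM) of the feeding peptide neuropeptide F, the allatostatin A receptors AstA-R1 (X, 3704 bases, 3.54 to 5.27 RPKM) and AstA-R2 (3R, 2356 bases, 1.64 to 3.67 RPKM), which are related to the galanin receptors, and the CCHamide receptors CCHa1-R (2R, 2642 bases, 1.85 to 2.33 RPKM) and CCHa2-R (2R, 2935 bases, 0.941 to 1.72 RPKM). The same group held CCKLR-17D1 (X, 3192 bases, 1.99 to 2.91 RPKM) and CCKLR-17D3 (X, 2230 bases, 4.03 to 7.99 RPKM) of the drosulfakinins, CNMaR (3L, 2704 bases, 2.35 to 4.76 RPKM) of CNMamide and RYa-R (3R, 2302 bases, 1.37 to 2.99 RPKM) of the RYamides. sNPF-R had the highest level of this group in every one of the 6 groups of libraries. Of the allatostatin C receptors, AstC-R1 (3L, 2912 bases, 1.65 to 8.57 RPKM) had the wider range and AstC-R2 (3L, 3735 bases, 2.36 to 3.37 RPKM) the narrower.

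Receptors of stress and diuresis were CrzR (3L, 3238 bases, 6.35 to 8.37 RPKM) of corazonin, a stress peptide related to gonadotropin releasing hormone, Dh31-R (2R, 3284 bases, 3.73 to 6.81 RPKM), Dh44-R1 (2R, 2475 bases, 4.83 to 7.72 RPKM), Dh44-R2 (2R, 3278 bases, 7.41 to 9.98 RPKM), Lgr1 (3R, 3222 bases, 7.75 to 12.3 RPKM), and Lkr (3L, 2930 bases, 1.41 to 2.02 RPKM) of leucokinin, which regulates water balance. Lkr was the lowest of these 6. Receptors of muscle and modulation were Proc-R (X, 3780 bases, 10.4 to 13.6 RPKM), FMRFaR (3L, 4218 bases, 1.92 to 3.14 RPKM), the myosuppressin receptors MsR1 (3L, 3544 bases, 2.80 to 4.15 RPKM) and MsR2 (3L, 2918 bases, 3.17 to 4.73 RPKM), 21.7 kb apart, the tachykinin receptor TkR99D (3R, 2880 bases, 2.21 to 5.01 RPKM) and the natalisin receptor TkR86C (3R, 3223 bases, 1.86 to 2.42 RPKM). Proc-R stood well above the other 5.

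Receptors of growth and reproduction were SPR (X, 3730 bases, 39.2 to 55.6 RPKM), SIFaR (3R, 5029 bases, 1.03 to 1.74 RPKM) of SIFamide, the relaxin receptor relatives Lgr3 (3R, 3005 bases, 0.517 to 0.844 RPKM) and Lgr4 (X, 2975 bases, 1.26 to 2.23 RPKM), and hec (X, 2618 bases, 1.13 to 2.03 RPKM), a class B receptor needed for male courtship. Apart from SPR they were among the lowest members. Those of ecdysis and the heart were ETHR (3R, 4512 bases, 1.63 to 5.60 RPKM), CCAP-R (3R, 2986 bases, 0.699 to 1.19 RPKM) and rk (2L, 5386 bases, 0.883 to 1.32 RPKM), of which ETHR varied most. Pdfr (X, 4668 bases, 5.76 to 8.20 RPKM) is the circadian receptor of pigment dispersing factor, and TrissinR (2L, 3637 bases, 5.66 to 7.75 RPKM) binds the peptide trissin.

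Exons of 6 receptors overlap exons of another gene on the opposite strand in the BDGP6 annotation. These are Dh44-R2 over 1087 bases, Lgr3 over 1036, SPR over 999 (the gene frma), Lgr4 over 868, rk over 527 and RYa-R over 28. The libraries were stranded but the strand setting of the counting was not given in the sources used here, so the levels of these 6 are uncertain. No receptor shared exon bases with a gene on its own strand.

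**Figure D1:**
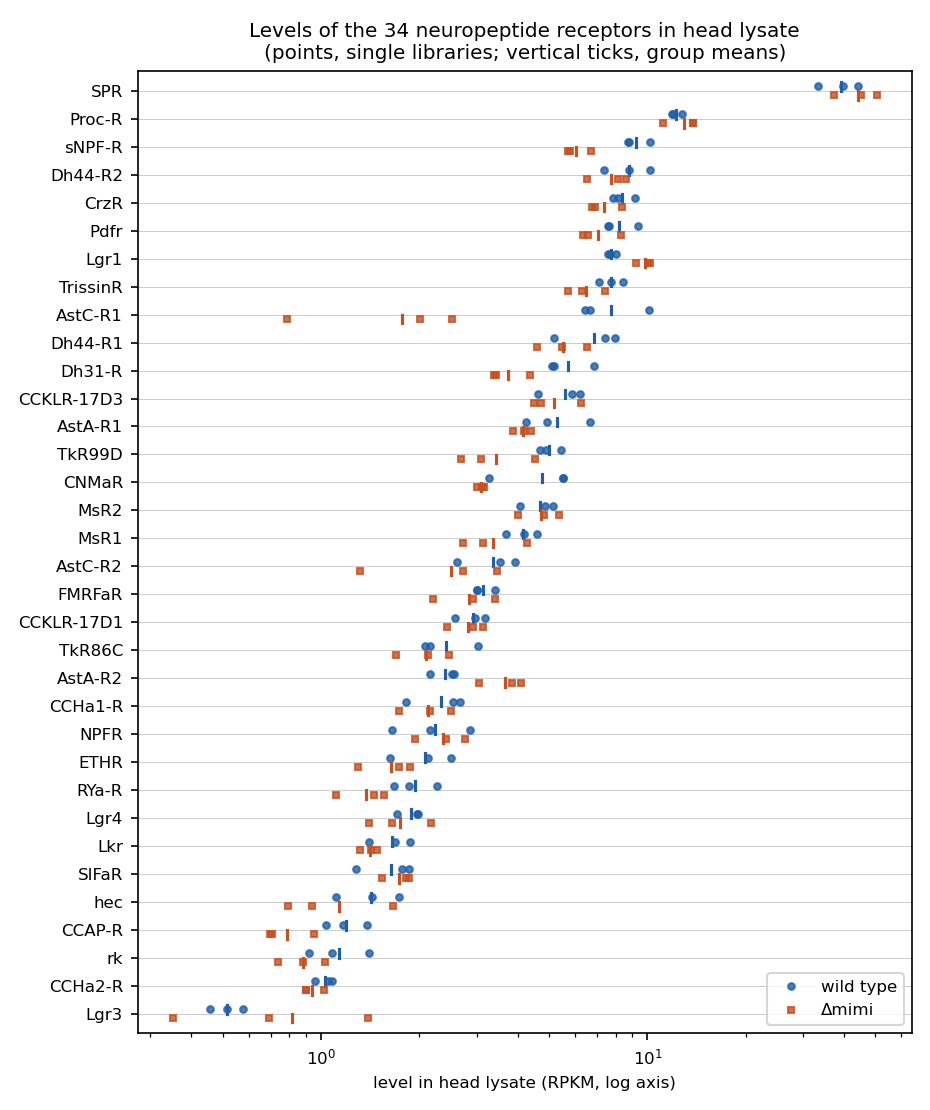
Level of each of the 34 receptors (RPKM, log axis) in head lysates of wild type (blue circles) and Δmimi (orange squares), with points for single libraries and vertical ticks for the means of 3. SPR lies above all others and Lgr3 at the bottom, and AstC-R1 is the receptor whose genotypes are farthest apart.

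The first comparison asked which receptors differ in head lysate without mimi. AstC-R1 (FBgn0036790, 3L, 18560258 to 18576326, plus strand) showed the largest difference. This receptor binds allatostatin C, and its mammalian relatives are the somatostatin receptors. Wild-type lysates had 29.4, 18.7 and 19.4 CPM of AstC-R1 and Δmimi lysates 7.35, 2.29 and 5.86 CPM. The genotypes did not overlap. The log2 fold change of AstC-R1 was -2.11 (SE 0.39), with an adjusted p of 0.0506 in the quasi-likelihood test of edgeR, just outside the threshold. Fold changes between genotypes are Δmimi over wild type throughout.

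By the thresholds used throughout (adjusted p under 0.05 over all genes tested, absolute log2 fold change above 0.5, described as called), 0 of the 34 receptors were called in lysate, where 1.6% of 9771 genes were (0.737% lower). At an unadjusted p under 0.05 there were 7 receptors. Such counts are given here and below without the share of all genes, and are not read as an excess. The Wald test of DESeq2 called AstC-R1 and sNPF-R lower, as it did 1.89% of all genes. Replicate numbers marked libraries that deviated together, and with the replicate number as a block 4 receptors were called lower, against 3.79% of all genes called lower in that fit. These were AstC-R1 (blocked log2 fold change -2.15, SE 0.21, adjusted p = 0.000207), sNPF-R (-0.60, SE 0.11, adjusted p = 0.00519), the diuretic hormone 31 receptor Dh31-R (-0.61, SE 0.13, adjusted p = 0.013) and the tachykinin receptor TkR99D (-0.55, SE 0.16, adjusted p = 0.0496). Without the block the adjusted p was 0.0754 for sNPF-R, 0.198 for Dh31-R and 0.34 for TkR99D.

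Short neuropeptide F promotes feeding and sleep, and its receptor sNPF-R is among the more abundant members. sNPF-R had 41.3, 41.8 and 48.4 CPM in wild-type lysates and 31.8, 27.1 and 27.4 CPM in Δmimi lysates. Dh31-R, a relative of the calcitonin receptor that acts in clock and sleep neurons, had 22.6, 16.7 and 16.99 CPM in wild type and 14.4, 11.3 and 11.2 CPM in Δmimi. TkR99D, which mediates presynaptic inhibition in the olfactory system, had 15.7, 13.5 and 14.1 CPM in wild type and 13.0, 7.74 and 8.88 CPM in Δmimi. In each of these 3 receptors every Δmimi lysate lay below every wild-type lysate, TkR99D by the narrowest margin.

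In the other direction Lgr1 had 24.8, 24.5 and 25.7 CPM in wild-type lysates and 32.8, 32.4 and 29.7 CPM in Δmimi lysates. Lgr1 had 26.3, 31.4 and 28.8 against 39.9, 35.5 and 36.8 CPM in granules 1 and 26.9, 31.0 and 37.6 against 36.2, 43.3 and 39.1 CPM in granules 2. The genotypes did not overlap in lysate and granules 1, and the log2 fold change of Lgr1 in lysate was 0.35 (SE 0.11, edgeR adjusted p = 0.196, or 0.0508 with the block), which passed in neither fit. AstA-R2, a receptor of allatostatin A, differed by 0.61 (log2, SE 0.21, edgeR adjusted p = 0.23).

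Over all 34 receptors the median log2 fold change in lysate was -0.21, beside 0.0032 over all genes tested, and 26 receptors were below 0, where 49.4% of all genes were. All Δmimi lysates lay below all wild-type lysates in 7 receptors (9.42% of all genes) and above them in 2 (9.68% of all genes). The 5 class B receptors were all below 0, between -0.61 and -0.18. The 4 leucine-rich repeat receptors were divided, with 2 below and 2 above 0.

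Neuronal markers were set beside the receptors in each fraction, first in lysate. All 6 that could be tested were below 0, with a median log2 fold change of -0.22 between -0.32 and -0.13, and 0 were called. Their summed level was 1461 to 2157 CPM in wild-type and 1246 to 1951 CPM in Δmimi lysates. Their part in the lysate differences was not tested. In bulk RNA, fewer cells that carry a receptor and less of its RNA per cell cannot be told apart. In the granule fractions the same markers had medians of -0.029 and -0.09, with 4 of 6 below 0 in each. Their summed level was 1467 to 2091 CPM in wild-type and 1248 to 1772 CPM in Δmimi granules 1, and 1452 to 2167 against 1129 to 1957 CPM in granules 2, and their part in the granule differences was not tested either.

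The next comparisons set Δmimi against wild type within the granule fractions. In granules 1, 6 receptors were called lower in Δmimi and 0 higher, out of 33 tested, or 18.2%. Of all 9754 genes tested 5.72% were called in either direction, and 2.92% of all genes tested were called lower. The 6 were AstC-R1, ETHR, TkR99D, CCKLR-17D3, Dh31-R and Dh44-R1. In granules 2, 5 of 34 were called lower and 0 higher, or 14.7%, where 5.25% of 9617 genes were called in either direction and 2.6% of the 9617 were called lower. These were AstC-R1, CCKLR-17D3, ETHR, Dh31-R and sNPF-R. Thus 4 receptors were called in both, which is 66.7% of the first list and 80.0% of the second, and both fractions came from the same preparations. The 7 receptors called in either lie on 4 chromosome arms.

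**Figure D2:**
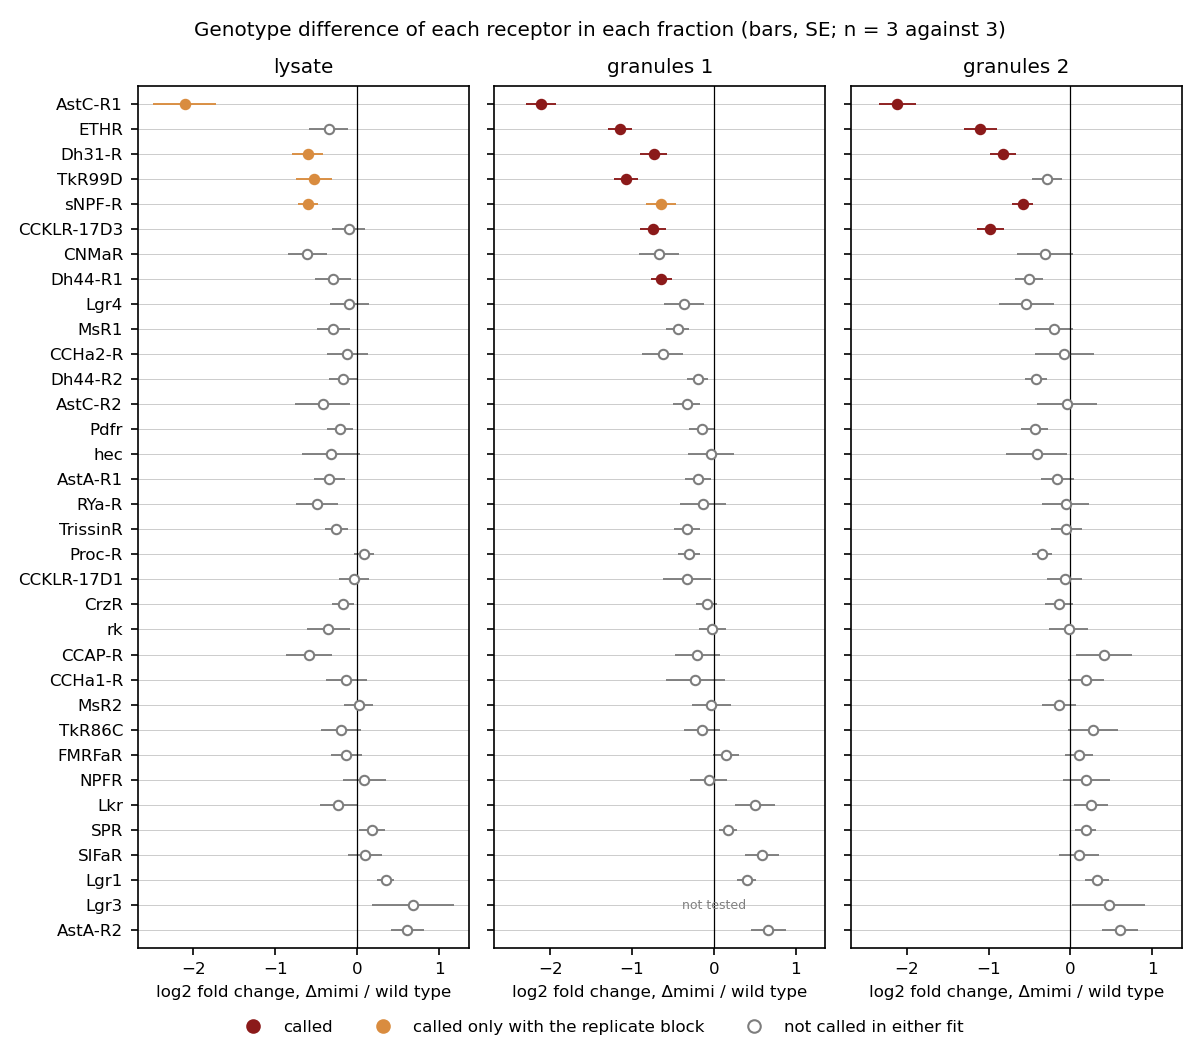
Log2 fold change of Δmimi over wild type for each receptor in lysate, granules 1 and granules 2, with bars for the SE. Filled dark red points passed the thresholds, orange points passed only with the replicate block, and AstC-R1 stands at -2.11 in each of the 3 panels.

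AstC-R1 had 29.8, 24.7 and 20.4 CPM in wild-type granules 1 and 5.89, 5.53 and 5.59 CPM in Δmimi granules 1. In granules 2 the values were 26.9, 19.9 and 15.6 CPM against 4.93, 4.44 and 5.05 CPM. Again no library of one genotype reached the other, and the Δmimi granule libraries were close together. The log2 fold change of AstC-R1 was -2.11 in granules 1 (SE 0.18, edgeR adjusted p = 0.001) and -2.11 in granules 2 (SE 0.23, edgeR adjusted p = 0.00207). It was called in both fractions whichever library was left out.

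The other allatostatin C receptor, AstC-R2, lies 57.7 kb from AstC-R1 on 3L. AstC-R2 had log2 fold changes of -0.42 (SE 0.34) in lysate, -0.33 in granules 1 and -0.04 in granules 2, and was called in none of them. AstC-R2 had 14.7, 13.2 and 9.78 CPM in wild-type and 12.9, 10.2 and 4.91 CPM in Δmimi lysates, 11.7, 11.9 and 10.2 against 7.53, 9.72 and 9.20 CPM in granules 1, and 15.1, 12.4 and 5.76 against 10.7, 15.1 and 6.81 CPM in granules 2. Its genotypes overlapped in lysate and granules 2 and were just apart in granules 1. The difference between the responses of AstC-R1 and AstC-R2 was not tested.

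The level of allatostatin C, the ligand of both, was lower in Δmimi in granules 2 (AstC log2 fold change -1.24, SE 0.25, edgeR adjusted p = 0.028). In lysate the log2 fold change of AstC was -1.23 (SE 0.36, edgeR adjusted p = 0.178) and in granules 1 it was -1.17 (SE 0.28, edgeR adjusted p = 0.0542). AstC and AstC-R1 thus had the same sign in all 3 fractions, and only AstC-R1 passed in granules 1.

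ETHR encodes the receptor of ecdysis triggering hormone, which starts the molting behaviour of insects and in adult flies acts on the corpora allata, the glands that make juvenile hormone. ETHR had 24.0, 23.3 and 28.6 CPM in wild-type granules 1 and 10.6, 11.8 and 11.2 CPM in Δmimi granules 1. In granules 2 it had 25.8, 18.02 and 27.7 CPM against 12.4, 11.2 and 9.23 CPM. The genotypes were apart in both fractions. For ETHR the log2 fold change was -1.15 in granules 1 (SE 0.14, edgeR adjusted p = 0.0045) and -1.10 in granules 2 (SE 0.20, edgeR adjusted p = 0.019). In lysate it was -0.35 (SE 0.24, edgeR adjusted p = 0.607), with 11.3, 7.35 and 9.61 CPM in wild type and 7.80, 8.44 and 5.86 CPM in Δmimi, which overlapped. In granules 1 the call held whichever library was left out. In granules 2 it was lost without wild-type replicate 1 (adjusted p = 0.078) or 3 (0.0788) and without Δmimi replicate 2 (0.0675) or 3 (0.0756).

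ETHR and the SIFamide receptor gene SIFaR are neighbours on 3R, 11.5 kb apart and 2.72 and 2.69 Mb from mimi. SIFaR, a receptor in courtship and sleep circuits, had 9.36, 6.41 and 8.92 CPM in wild-type lysates and 9.14, 9.32 and 7.75 CPM in Δmimi lysates, which overlapped. In granules 1 it had 5.24, 4.72 and 5.54 against 9.33, 6.86 and 6.68 CPM, without overlap, and in granules 2 9.11, 5.45 and 5.76 against 8.26, 6.93 and 6.59 CPM. SIFaR differed by 0.09 (SE 0.21) in lysate, 0.59 (SE 0.21) in granules 1 and 0.10 (SE 0.25) in granules 2 on the log2 scale, and it was called in none of the 3 fractions. Among the 10 receptors on 3R, the arm of mimi, those called lower were ETHR and TkR99D, and the member nearest to mimi was Lgr3 at 1.68 Mb.

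CCKLR-17D3 and CCKLR-17D1, 37.9 kb apart on X, are receptors of the drosulfakinins, satiety peptides related to cholecystokinin. CCKLR-17D3 had 16.2, 19.8 and 14.7 CPM in wild-type granules 1 and 10.3, 10.3 and 9.20 CPM in Δmimi granules 1. In granules 2 it had 18.2, 19.1 and 16.2 CPM against 9.86, 7.64 and 9.45 CPM. The genotypes did not overlap in either fraction. On the log2 scale CCKLR-17D3 differed by -0.74 in granules 1 (SE 0.16, edgeR adjusted p = 0.0375) and -0.98 in granules 2 (SE 0.16, edgeR adjusted p = 0.0137). In lysate CCKLR-17D3 differed by -0.11 (log2, SE 0.20, edgeR adjusted p = 0.893), with 13.9, 13.1 and 10.3 CPM in wild type and 13.9, 10.6 and 10.02 CPM in Δmimi. The granules 1 call was lost without any 1 of the 6 libraries (adjusted p = 0.0626 to 0.131), and the granules 2 call without wild-type replicate 1 (0.0569) or Δmimi replicate 2 (0.0515). CCKLR-17D1 was called in none of the genotype comparisons. Against lysate it was called in 1 setting, lower in Δmimi granules 1 with the replicate block and length correction together (log2 fold change -0.61, adjusted p = 0.0299). It had 10.2, 9.49 and 8.24 CPM in wild-type and 9.29, 7.74 and 10.02 CPM in Δmimi lysates, 9.36, 6.39 and 8.76 against 7.53, 3.81 and 7.76 CPM in granules 1 and 7.75, 6.08 and 7.95 against 7.99, 6.04 and 6.37 CPM in granules 2, with overlap in each. Its log2 fold change was -0.04 (SE 0.19) in lysate, -0.33 (SE 0.29) in granules 1 and -0.07 (SE 0.21) in granules 2.

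Dh31-R had 22.8, 21.3 and 20.2 CPM in wild-type granules 1 and 13.7, 13.9 and 10.3 CPM in Δmimi granules 1. In granules 2 the values were 21.9, 25.8 and 19.5 CPM against 13.7, 12.8 and 11.2 CPM, again without overlap. For Dh31-R the log2 fold change was -0.74 in granules 1 (SE 0.16, edgeR adjusted p = 0.0387) and -0.82 in granules 2 (SE 0.16, edgeR adjusted p = 0.0263), after -0.61 in lysate. The granules 1 call was lost without any 1 of the 6 libraries (adjusted p = 0.0663 to 0.125). The granules 2 call was lost without wild-type replicate 1 (0.0782) or 2 (0.0803) and without Δmimi replicate 2 (0.0824) or 3 (0.0892).

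Dh44-R1 and Dh44-R2 bind diuretic hormone 44 and are related to the receptors of corticotropin releasing factor. Dh44-R1 had 17.8, 19.6 and 19.5 CPM in wild-type granules 1 and 11.8, 11.8 and 12.3 CPM in Δmimi granules 1, with tight and separate groups. Its log2 fold change was -0.64 (SE 0.13, edgeR adjusted p = 0.026), and the call was lost without any 1 of the 6 libraries (adjusted p = 0.0626 to 0.0955). In granules 2 Dh44-R1 had 18.2, 16.3 and 22.8 CPM in wild type and 14.3, 13.9 and 11.6 CPM in Δmimi, without overlap, and in lysate 19.7, 12.8 and 18.4 against 16.2, 13.5 and 11.3 CPM, with overlap. The log2 fold change was -0.30 (SE 0.22) in lysate and -0.51 (SE 0.17) in granules 2, which passed only with the replicate block and length correction together (adjusted p = 0.0384, with 5.55% of all genes called lower). Dh44-R2, whose counts may include those of overlapping genes, was called in no comparison. It had 33.4, 24.1 and 28.8 CPM in wild-type and 28.2, 26.6 and 21.4 CPM in Δmimi lysates, 32.2, 30.4 and 26.5 against 26.3, 23.8 and 26.2 CPM in granules 1 and 35.7, 32.1 and 30.4 against 27.3, 22.9 and 22.6 CPM in granules 2. All 3 Δmimi libraries of Dh44-R2 were below the wild type in granules 2 and, by a margin small enough to depend on the scaling of the libraries, in granules 1, and its log2 fold change was -0.18 (SE 0.17) in lysate, -0.20 (SE 0.12) in granules 1 and -0.42 (SE 0.13) in granules 2.

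TkR99D had 13.6, 13.4 and 13.9 CPM in wild-type granules 1 and 6.71, 5.53 and 6.86 CPM in Δmimi granules 1. For TkR99D the log2 fold change was -1.07 (SE 0.15, edgeR adjusted p = 0.0062), and the call held whichever library was left out. In granules 2 the values were 13.4, 11.1 and 10.1 CPM in wild type and 9.72, 7.99 and 10.8 CPM in Δmimi, which overlapped, and the log2 fold change was -0.29. The tachykinin precursor Tk had log2 fold changes between -0.31 and -0.14 in the 3 fractions and was called in none.

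sNPF-R had 49.3, 42.0 and 41.1 CPM in wild-type granules 1 and 35.7, 23.3 and 24.4 CPM in Δmimi granules 1. In granules 2 it had 46.5, 38.8 and 48.8 CPM against 31.4, 28.9 and 28.3 CPM. The genotypes were apart in each fraction. For sNPF-R the log2 fold change was -0.64 in granules 1 (SE 0.18, edgeR adjusted p = 0.0889, or 0.00466 with the block, which called 4.75% of all genes lower) and -0.59 in granules 2 (SE 0.13, edgeR adjusted p = 0.0377). The granules 2 call was lost without wild-type replicate 1 (0.125) or 3 (0.142) and without Δmimi replicate 1 (0.0693), 2 (0.118) or 3 (0.124), which leaves wild-type replicate 2 as the library that did not decide it.

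**Figure D3:**
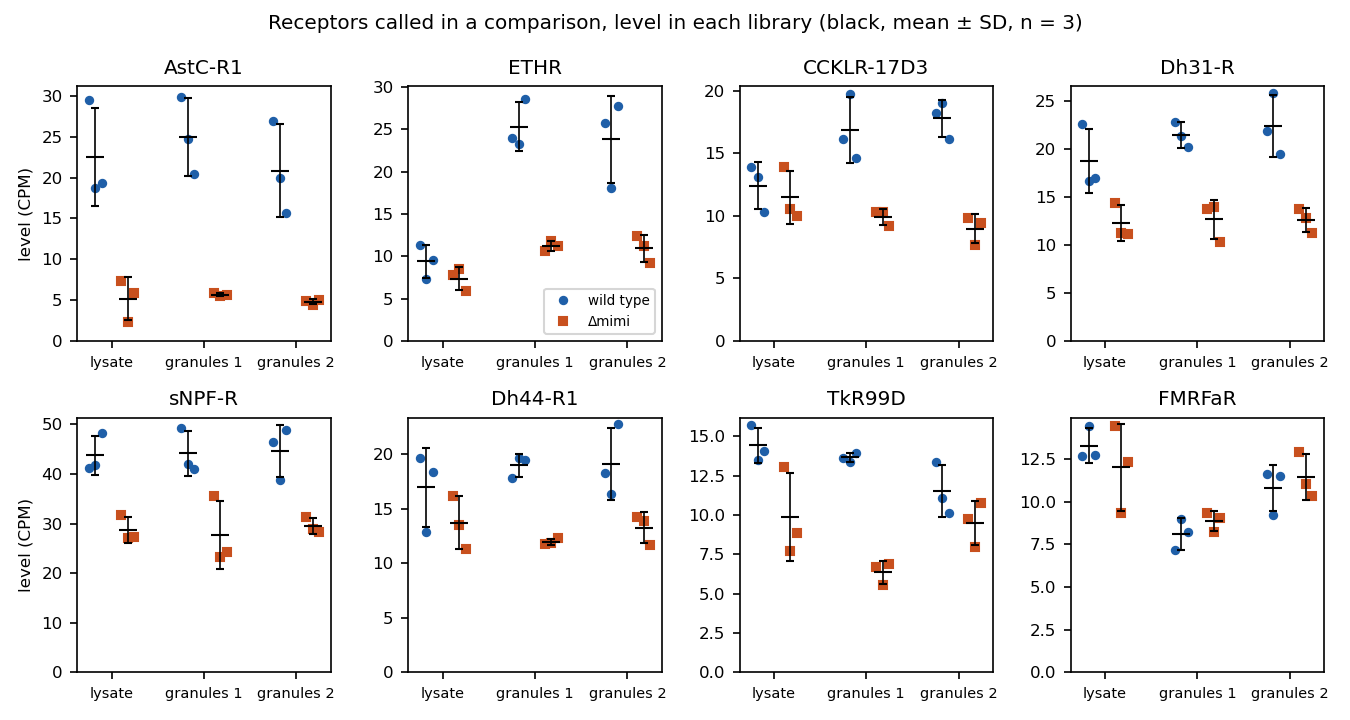
Level (CPM, axes from 0) of the 8 receptors called in any comparison in each of the 18 libraries, wild type in blue and Δmimi in orange, with the mean and SD of 3 libraries in black. ETHR and CCKLR-17D3 separate by genotype in the granule fractions but not in lysate, whereas AstC-R1, Dh31-R and sNPF-R separate in every fraction.

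The members at the ends of the range of levels were called in no genotype comparison, and their levels are given with wild type first. SPR had 165, 124 and 149 CPM in wild-type and 188, 168 and 139 CPM in Δmimi lysates, 202, 165 and 195 against 208, 215 and 199 CPM in granules 1 and 192, 163 and 194 against 219, 228 and 175 CPM in granules 2, with differences of 0.18 (SE 0.16), 0.17 (SE 0.11) and 0.19 (SE 0.13) on the log2 scale. Proc-R, the receptor of a peptide that strengthens muscle contraction, had 48.4, 45.4 and 45.0 against 52.0, 52.1 and 42.3 CPM in lysate, 50.8, 54.5 and 42.9 against 45.2, 37.0 and 36.1 CPM in granules 1 and 51.5, 49.9 and 52.7 against 39.8, 46.0 and 34.9 CPM in granules 2. Proc-R differed by 0.08 (SE 0.13) in lysate, -0.30 (SE 0.14) in granules 1 and -0.34 (SE 0.12) in granules 2 on the log2 scale, and only granules 2 showed no overlap.

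At the low end, rk had 7.57, 4.94 and 5.83 against 5.55, 4.75 and 3.97 CPM in lysate, 7.14, 7.76 and 6.44 against 7.20, 6.86 and 6.68 CPM in granules 1 and 7.56, 5.03 and 5.48 against 5.59, 5.68 and 6.59 CPM in granules 2, and differed by -0.36 (SE 0.26), -0.02 (SE 0.17) and -0.02 (SE 0.23) on the log2 scale. CCAP-R, whose peptide acts on the heart and in ecdysis, had 4.13, 3.47 and 3.09 against 2.85, 2.11 and 2.08 CPM, 3.01, 2.89 and 2.86 against 2.13, 3.05 and 2.35 CPM and 1.55, 2.51 and 2.19 against 2.26, 3.37 and 2.64 CPM, and differed by -0.59 (SE 0.28), -0.20 (SE 0.28) and 0.40 (SE 0.34) on the log2 scale. Lgr3, the receptor of the growth signal Dilp8, had 1.38, 1.74 and 1.54 against 4.20, 1.06 and 2.08 CPM, 1.59, 2.13 and 1.79 against 2.45, 0.953 and 1.26 CPM and 1.55, 2.93 and 0.823 against 2.26, 2.49 and 2.86 CPM. It was below the filter on low counts in granules 1, and its log2 fold changes in lysate and granules 2 were 0.67 (SE 0.50) and 0.47 (SE 0.44). CCAP-R was without overlap in lysate and rk in no fraction, and the SE of these low members was often as large as the difference.

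Over all receptors tested, the median log2 fold change was -0.20 in granules 1, with 27 of 33 below 0, and -0.11 in granules 2, with 23 of 34 below 0. Over all genes tested it was 0.008 and 0.0036, with 48.6% and 49.3% below 0. With libraries scaled within each comparison, every Δmimi library lay below every wild-type library in 11 receptors of granules 1 (13.7% of all genes) and 9 of granules 2 (12.4%), and above in 3 (12.5%) and 1 (11.9%). Of the 33 receptors tested in every fraction, 21 were below 0 in all 3, and 4 (AstA-R2, Lgr1, SIFaR and SPR) were above 0 in all 3. The 3 fractions came from the same preparations, so their signs are not independent. Of all 34 receptors, 18 reached an unadjusted p under 0.05 in none of the genotype comparisons. The levels of all receptors of a library summed to 668 to 725 CPM in wild-type and 576 to 623 CPM in Δmimi granules 1. These sums were 646 to 724 and 556 to 640 CPM in granules 2, and 589 to 709 and 524 to 659 CPM in lysate. Without SPR, the most abundant member, they were 472 to 524 and 377 to 415 CPM in granules 1. In granules 2 they were then 483 to 532 and 381 to 421 CPM, and in lysate 465 to 543 and 384 to 471 CPM. The ranges met in lysate with and without SPR. SPR was above 0 in all 3 fractions, and the group means of the genotypes lay further apart without it.

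By role, the feeding, sleep and metabolism group (10 receptors, among them sNPF-R, NPFR, CCKLR-17D3 and both allatostatin A receptors) had medians of -0.13 in lysate, -0.28 in granules 1 and -0.07 in granules 2, with 0, 1 and 2 called lower. Of all genes tested 0.737%, 2.92% and 2.6% were called lower in these fractions. The role groups are small and were not compared by a test. The stress and diuresis group (6, with CrzR, Lkr, Lgr1, Dh31-R and both Dh44 receptors) had medians of -0.21, -0.14 and -0.28, with 0, 2 and 1 called lower. The muscle and modulation group (6, with Proc-R, FMRFaR and the receptors of tachykinin, natalisin and myosuppressin) had medians of -0.17, -0.23 and -0.17, with TkR99D as its called member. The growth and reproduction group (5, with SPR, SIFaR, Lgr3, Lgr4 and hec) had medians of 0.09, 0.07 and 0.10, and 0 were called. The circadian receptor Pdfr, through which pigment dispersing factor synchronizes clock neurons, had log2 fold changes of -0.21, -0.15 and -0.44 and was called in none.

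Related gene lists were fitted alongside. Of all genes tested 0.737%, 2.92% and 2.6% were called lower in lysate, granules 1 and granules 2, and 0.86%, 2.8% and 2.65% higher. Of 19 receptors of amines and acetylcholine tested, 0 were called in lysate and 2 lower in each granule fraction, the dopamine receptor Dop2R and the octopamine receptor Octbeta3R. Lower calls in the pellets were thus not particular to the peptide receptors. The medians of the amine and acetylcholine receptors were -0.24, -0.20 and -0.24, with 17, 16 and 15 of 19 below 0. Of 35 genes of G protein transduction, 0 were called in lysate and 1 lower in each granule fraction, Gbeta5, with medians of -0.053, -0.032 and -0.036. The 4 other peptide receptors tested (of hugin, capability and adipokinetic hormone) had medians of -0.61, -0.46 and -0.41, and 0 were called. The summed level of the 5 listed overlapped between genotypes, at 35.3 to 41.3 CPM in wild-type and 23.0 to 38.7 CPM in Δmimi lysates. It was 29.2 to 38.6 against 26.3 to 40.8 CPM in granules 1 and 30.6 to 35.2 against 26.3 to 38.4 CPM in granules 2. Thus the amine receptors had medians near those of the peptide receptors, and the transduction genes had medians nearer to 0. Of the other marker lists, 8 glial genes had medians of -0.11, -0.21 and -0.18 and 0 calls, 12 photoreceptor genes had 1 lower call in each fraction (Rh5), 7 muscle genes were all above 0 with 0 calls, and of 5 genes of the head fat body 1 was called higher in each (to). The 5 germline genes had medians of 2.23, 2.93 and 2.76, with 1, 5 and 5 called higher. Of the hemocyte genes 2 were called lower in each fraction, and of 3 midgut genes 1 was called higher in each granule fraction (Amy-p).

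The precursors of the receptor ligands were also below 0. In lysate 22 of the 23 tested were, with a median of -0.57, and natalisin was called lower. In granules 1 the median was -0.45, with CNMa called higher, and in granules 2 it was -0.50, with Pdf and AstC called lower. The shares of all genes called are those given above for these fractions. In lysate 28 ligand and receptor pairs could be set side by side. In 19 of them both were below 0, in 8 the receptor was above and the ligand below, in 1 the reverse, and in 0 both were above. Several receptors share a ligand and all values come from the same libraries, so these pairs are not independent. Most ligands were below 0 in each fraction, and across the pairs the sizes of the ligand and receptor changes had a Spearman rho of 0.035 in lysate (28 pairs), -0.12 in granules 1 (27 pairs) and 0.014 in granules 2 (26 pairs), given as a description across genes.

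The granule fractions were then compared with the lysate they came from, which asks whether receptor RNA is found in the pellet at another level than in the lysate. The main fits treated pellets and lysates as separate groups, and only the replicate block paired those of a preparation. In wild type, ETHR was the receptor called higher in both pellets. It had 11.3, 7.35 and 9.61 CPM in lysate, 24.0, 23.3 and 28.6 CPM in granules 1 and 25.8, 18.02 and 27.7 CPM in granules 2. Every pellet stood above every lysate. The log2 fold change of ETHR was 1.42 in granules 1 (SE 0.19, edgeR adjusted p = 0.00432) and 1.36 in granules 2 (SE 0.22, edgeR adjusted p = 0.00994). The call in granules 1 was lost without the preparation of wild-type replicate 3 (adjusted p = 0.154), and that in granules 2 without replicate 1 (0.0681) or 3 (0.196).

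In granules 1 of wild type 8.25% of 9740 genes were called, 5.02% higher and 3.23% lower, and among the 34 receptors 1 was higher and 1 lower. The latter was FMRFaR, the receptor of the FMRFamides, modulators of muscle and synapses. FMRFaR had 12.7, 14.4 and 12.7 CPM in lysate and 7.14, 8.98 and 8.22 CPM in granules 1, without overlap, and 11.6, 9.22 and 11.5 CPM in granules 2. In Δmimi it had 14.4, 9.32 and 12.3 CPM in lysate, 9.33, 8.20 and 9.02 CPM in granules 1 and 12.9, 11.01 and 10.3 CPM in granules 2, which overlapped. The log2 fold change was -0.72 (SE 0.15, edgeR adjusted p = 0.0302), and the call was lost without wild-type replicate 1 (0.181) or 3 (0.332). With the replicate block, which here joins the fractions of one preparation, 3 were called higher (ETHR, RYa-R and CCHa2-R) and 3 lower (FMRFaR, SIFaR and the myosuppressin receptor MsR2), beside 7.46% and 9.14% of all genes. With the length correction added to the block RYa-R and CCHa2-R were no longer called. In granules 2 of wild type 9.3% of 9582 genes were called, 5.73% higher, and of 33 receptors 1 was higher and 0 lower. CCKLR-17D3 joined ETHR with the block (log2 fold change 0.54, SE 0.15, adjusted p = 0.00722), where 8.58% of all genes were called higher.

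In Δmimi the main fits, without this pairing, called 0 receptors in granules 1 against lysate, where 4.82% of 9729 genes were called. They called 0 in granules 2, where 4.5% of 9762 genes were called. At an unadjusted p under 0.05 there were 8 and 6 receptors, and DESeq2 called 0 in each. With the block 2 were called higher and 2 lower in granules 1 (ETHR and RYa-R, MsR2 and TkR99D), and 2 higher and 1 lower in granules 2 (ETHR and RYa-R, and AstA-R2), beside 6.01%, 8.01%, 6.33% and 8.34% of all genes. ETHR in Δmimi had 7.80, 8.44 and 5.86 CPM in lysate, 10.6, 11.8 and 11.2 CPM in granules 1 and 12.4, 11.2 and 9.23 CPM in granules 2. Its pellets, too, stood above its lysates. The log2 fold change of ETHR was 0.61 (SE 0.19, edgeR adjusted p = 0.105, or 0.0145 with the block) and 0.58 (SE 0.21, edgeR adjusted p = 0.15, or 0.0117 with the block). With the length correction added to the block ETHR was no longer called in either Δmimi pellet, at 0.46 (adjusted p = 0.0724) and 0.42 (adjusted p = 0.0908).

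RYa-R, the receptor of the RYamides, had the largest log2 fold changes of the members in Δmimi pellets, at 0.98 in granules 1 (SE 0.32, edgeR adjusted p = 0.127, or 0.00739 with the block) and 0.92 in granules 2 (SE 0.32, edgeR adjusted p = 0.152, or 0.00824 with the block). RYa-R had 2.55, 3.34 and 3.59 CPM in Δmimi lysate, 4.42, 8.58 and 5.59 CPM in granules 1 and 5.19, 8.35 and 4.17 CPM in granules 2. In wild type it had 3.85, 5.21 and 4.29 CPM in lysate and 7.30, 7.61 and 5.72 CPM in granules 1, and 5.81, 6.49 and 6.31 CPM in granules 2. The pellets of both genotypes were above their lysates in every library. SPR had log2 fold changes between 0.34 and 0.35 in all 4 comparisons of pellet and lysate, none of which was called, since with the block its adjusted p passed but its fold did not.

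**Figure D4:**
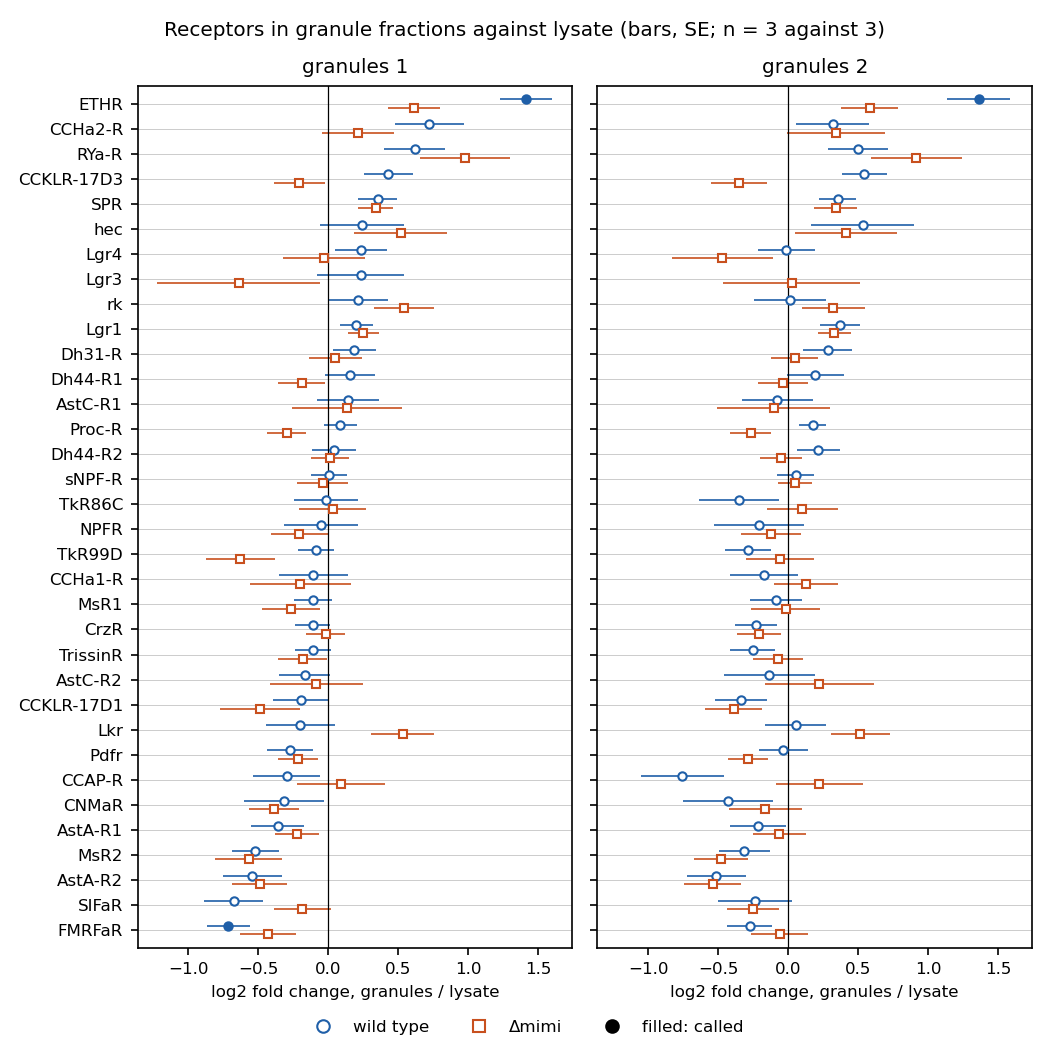
Difference between granules and lysate (log2 fold change) for each receptor in wild type (blue circles) and Δmimi (orange squares), with bars for the SE and filled symbols for calls. ETHR in wild type stands apart at 1.42 and 1.36 in the pellet of granules 1 and of granules 2.

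Over all receptors tested, the median of granules 1 over lysate on the log2 scale was -0.034 in wild type and -0.13 in Δmimi, and that of granules 2 was -0.076 and -0.044. The medians over all genes were between -0.031 and -0.016. In the main fits receptor RNA as a group thus stood at about the same level in pellets and lysate, relative to the other RNA. Among the alternatives the median of granules 1 was -0.13 to 0.014 in wild type and -0.23 to -0.013 in Δmimi. That of granules 2 was -0.21 to -0.031 and -0.16 to 0.053. The medians over all genes in those alternatives are not given here. Members lay on both sides of 0. The amount of receptor RNA in a pellet cannot be read from these scaled counts.

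Whether the pellets of the 2 genotypes are enriched to a different degree was tested as an interaction over 12 libraries. For granules 1, 0 of 34 receptors were called, where 0.0102% of 9768 genes were, and 4 receptors had an unadjusted p under 0.05. For granules 2, 0 of 34 were called, where 0.0% of 9717 genes were, and again 4 had an unadjusted p under 0.05. DESeq2 called 0 in each, and so did all other settings run. ETHR had the smallest p in granules 1, with a difference in log2 enrichment of 0.82 (SE 0.26, unadjusted p = 0.00838, edgeR adjusted p = 1) in favour of wild type, and 0.78 in granules 2 (SE 0.31, unadjusted p = 0.0281, adjusted p = 1). CCKLR-17D3 had the smallest p in granules 2, with a difference of 0.89 (SE 0.25, unadjusted p = 0.00387, edgeR adjusted p = 1), and 0.65 in granules 1 (SE 0.25, unadjusted p = 0.0233). Lkr, the leucokinin receptor, was the third by p in granules 1, at -0.72 (SE 0.32), and Proc-R came between CCKLR-17D3 and ETHR in granules 2, at 0.44 (SE 0.17). The main interaction fit did not pair a pellet with its own lysate. Among the alternative fits, the lowest adjusted p in granules 2 was 0.0551 for CCKLR-17D3 and 0.164 for ETHR. In granules 1 it was 0.349 for CCKLR-17D3 and 0.239 for ETHR. The differences of ETHR and CCKLR-17D3 between genotypes in granule enrichment therefore passed in no fit. Their differences in level within the pellets passed in the main fit.

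The wash was examined by setting granules 2 against granules 1. In wild type 0 of 33 receptors and 0.0% of 9540 genes were called, and in Δmimi 0 of 34 and 0.0% of 9736 genes. At an unadjusted p under 0.05 there were 1 and 2 receptors, and DESeq2 called 0. The smallest p belonged to FMRFaR in wild type, with a log2 fold change of 0.43 (SE 0.18, unadjusted p = 0.0401), and to TkR99D in Δmimi, with 0.57 (SE 0.19, unadjusted p = 0.0171). FMRFaR in Δmimi had 0.38 (SE 0.15, unadjusted p = 0.0438). Next in wild type were SIFaR at 0.43 and CCAP-R at -0.47, and in Δmimi Lgr3 at 0.66 (SE 0.39), a receptor read by few counts.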

How the data were processed

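The deposited table held raw read counts per gene for 18 libraries, which the authors made with snakePipes, STAR and featureCounts (Subread) on dm6 with Ensembl release 96. The libraries were stranded and depleted of ribosomal RNA, and tool versions were not given in the sources used here. Symbols, positions and exon lengths came from Ensembl release 115 (17252 of 17558 gene IDs matched, 306 did not). The columns of all 18 libraries were used, and the differential expression results of the study were not used here.

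Each of 11 comparisons was fitted on the counts in edgeR 4.0.16 (R 4.3.3, quasi-likelihood F test) with TMM (trimmed mean of M values) library sizes and the groups compared only, on genes with a base mean above 10. The Benjamini-Hochberg adjustment ran over all genes tested, and a call needed a log2 fold change beyond 0.5 in either direction with an adjusted p below 0.05. The main fits had no replicate term, so fractions of one preparation were not paired in them. The SE was taken as the log2 fold change over the root of F. Replicates were separate preparations from pooled flies as far as the labels show, and p-values measure the spread between 3 of them. Fits were tested on simulated data in which libraries varied independently, so the simulation did not test the effect of libraries that deviate together. CPM used TMM sizes over 18 libraries, and RPKM divided CPM by exon kilobases.

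Same-numbered libraries deviated together from their group means, with correlations of 0.277 to 0.754 over all pairs of groups and -0.653 to 0.222 for other numbers. Granule fractions of a number came from its lysate, and the labels do not say what a number shared between the genotypes. Alternatives were DESeq2 1.42.0 (size factors and Wald test), no filter, a base mean above 50, no fold threshold, a replicate block, a length correction, both, and leaving out each library, or each preparation in comparisons of fractions.

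The receptors, lists and tests were chosen with earlier results of these data known. Values are given for members called in any comparison, for the 3 smallest p in each comparison, for the 3 highest and 3 lowest levels, and for partners of called members at the same peptide. Members called only with the block, AstA-R2 in lysate and the chosen ligands were named after their values were seen.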

Additional observations from a re-analysis of the deposited data

How the results depend on the processing

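No log2 fold change of a named receptor changed sign among called values under any alternative. Against the main counts of receptors called, those lower in Δmimi in lysate (0) became 2 with the DESeq2 Wald test, 1 without the filter, 4 with the replicate block, 1 with the length correction and 4 with block and length correction together, and lay between 0 and 1 when a library was left out. In granules 1 (6) they became 7 with the DESeq2 Wald test, the block or the length correction, which each added sNPF-R, and 8 with block and length correction together, which also added CNMaR. They lay between 3 and 4 when a library was left out, with AstC-R1, ETHR and TkR99D called each time. In granules 2 (5) they became 6 with block and length correction together, which added Dh44-R1, and lay between 1 and 4, with AstC-R1 called each time and alone without wild-type replicate 1 or Δmimi replicate 2.

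For granules against lysate, the replicate block moved these counts. In wild-type granules 1 the number higher (1) became 3 with the block and was 1 (ETHR) with the length correction added, and the number lower (1) became 3 in both blocked fits. In wild-type granules 2 the number higher (1) became 2 in both blocked fits, and the number lower (0) became 1 with block and length correction. Without 1 preparation the counts of 1 lay between 0 and 1. In Δmimi the number higher (0) became 2 with the block (ETHR and RYa-R) and 1 with both corrections (RYa-R) in each pellet, and the number lower (0) became 2 and 4 in granules 1 and 1 and 2 in granules 2. Of all genes, the block and then both corrections called 7.46% and 6.92% higher and 9.14% and 5.28% lower in wild-type granules 1. These shares were 8.58% and 7.27%, and 9.37% and 5.56%, in wild-type granules 2. In Δmimi they were 6.01% and 5.17%, and 8.01% and 4.1%, in granules 1. For Δmimi granules 2 they were 6.33% and 5.11%, and 8.34% and 3.95%. The block by preparation, chosen after seeing the data, called 0 receptors in either test of the difference in enrichment. The replicate block alone changed no other call of a receptor. Of the log2 fold changes of named receptors under the alternatives, 501 kept their side of the threshold, 39 passed it only there and 38 lost it. Of the medians over all receptors, 113 stayed within the spread of the median between replicate numbers and 14 moved beyond it.

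Limits: Lgr3 and CCAP-R were read by at most 30 counts in a library, the fits had 3 preparations a group, and 6 receptors overlap a gene on the opposite strand. The lines, the germline and hemocyte markers and the wash label bear on the values as given above.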
